A study of Mus musculus with 8 samples.

Results

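The nuclear-encoded subunits of the oxidative phosphorylation complexes were described in CD8 memory T cells of aged mice, comparing large clones that arise with age (clonal expansions) with the polyclonal cells of the same animals. The genes were taken by symbol: the Ndufa, Ndufb, Ndufc, Ndufs and Ndufv families of complex I, Sdha to Sdhd of complex II, the Uqcr genes and Cyc1 of complex III, the Cox4 to Cox8 families of complex IV and the Atp5 genes of complex V. The Ndufaf assembly factors were left out, and each gene was counted in a complex by its symbol alone. Of 18193 genes with a probe set of their own on the array, 83 met this rule, and each was read from the probe set with the highest mean signal. The filter on dim probe sets kept 76 of the 83: 34 of 36 in complex I, all 4 in complex II, all 9 in complex III, 12 of 17 in complex IV and all 17 in complex V.

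Oxidative phosphorylation takes place in the inner mitochondrial membrane. Complexes I and II pass electrons from NADH and succinate to ubiquinone, complex III passes them to cytochrome c, and complex IV passes them to oxygen. Complexes I, III and IV pump protons as they do so, and complex V, the ATP synthase, uses the proton gradient to make ATP. Memory CD8 T cells are known for relying on mitochondrial respiration more than effector cells do.

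The study hybridised 8 Affymetrix whole-genome mouse arrays, 1 expansion and 1 polyclonal sample from each of 4 aged female mice. Mice 1 and 2 were C57BL/10SnJ at 20 months, mouse 3 was C57BL/10SnJ at 23 months, and mouse 4 was B10.BR at 23 months. Cells of spleen and lymph nodes were sorted as CD8+, CD122+ and negative for MHC II. The expansion was the fraction positive for 1 T cell receptor Vb segment, which was Vb3 in mouse 1, Vb8.1/8.2 in mouse 2, Vb8.3 in mouse 3 and Vb14 in mouse 4, and the polyclonal sample was the fraction negative for that segment. By the labels the expansion of mouse 1 belonged to the integrin a4 high subclass and the other 3 to the a4 low subclass, so the high subclass rested on 1 mouse. Each expansion stands for the clonal population of 1 animal. The labels name no treatment for either group.

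Sort purity was 91%, 95%, 96% and 98% in the expansions of mice 1 to 4, and 97%, 75%, 66% and 97% in the paired polyclonal samples. Cd8a, which marks the sorted lineage, was above background on all 8 arrays with a signal of 13073 to 30815 (above background meaning over a level of 33.7 to 61.9 set per array from 27 unspiked control probe sets), while Cd4 was above background on 2 arrays, the polyclonal samples of mice 2 and 3. Of 4 natural killer cell markers on the array, 2 (Eomes and Nkg7) were above background on all 8 arrays and Ncr1 on none. Whether these signals came from natural killer cells or from the sorted CD8 cells was not tested. Between 22085 and 30533 probe sets were above background on an array. RNA was amplified in a double round, and the signal ratio of the 3′ to the 5′ probe set of the actin control was 34.9 to 89.7. The scanning record of the expansion of mouse 4 gave a pixel size of 1.56, against 1 for the others, so that array was recorded differently. In bulk samples such as these, fewer cells of a type and less RNA per cell cannot be told apart.

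The promoters of these genes are known for sites of the nuclear respiratory factor NRF1, whose core motif is GCATGCGC and whose palindromic site is this core with GC added at its 5′ end. RefSeq promoter windows on GRCm38.p6, running from 250 bases before to 50 after the start, were matched by gene ID for 62 of the 76 members. The palindrome lay in 4 of the 62 windows, those of Atp5g2, Atp5k, Cox6a1 and Uqcrc1, which is 6.45%, beside 2.48% of 8468 tested genes and 1.07% of all 27025 windows, searched on both strands. The NRF1 core alone, contained in the palindrome, lay in 14.5% of member windows, 6.28% of tested genes and 3.05% of all windows. For AAGATGGC, read by YY1, these shares were 14.5%, 5.60% and 3.19%. The ETS motif CCGGAAG of GABP lay in 27.4%, 21.4% and 9.93%. The ESRRA motif TCAAGGTCA lay in 2 member windows, those of Atp5g3 and Sdhd, which is 3.23% beside 0.378% and 0.466%. The SP1 motif GGGCGG was held by 43.5% of member windows, fewer than the 68.1% of tested genes, and by 38.2% of all windows. These are matches of letters in a window and do not show that a factor bound there. The upstream stretches of the 3 members with the palindrome before the start are shown because they carry the motif in the region these factors are known to act on. Each lies on the minus strand of GRCm38.p6 and is written in the direction of the gene, with the palindrome in capitals: Cox6a1 at chr5:115349041-115349190, Atp5g2 at chr15:102671048-102671197 and Atp5k at chr5:108434400-108434549.
Cox6a1: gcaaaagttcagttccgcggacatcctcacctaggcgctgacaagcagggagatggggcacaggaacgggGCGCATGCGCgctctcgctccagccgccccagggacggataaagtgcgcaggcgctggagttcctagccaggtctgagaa
Atp5g2: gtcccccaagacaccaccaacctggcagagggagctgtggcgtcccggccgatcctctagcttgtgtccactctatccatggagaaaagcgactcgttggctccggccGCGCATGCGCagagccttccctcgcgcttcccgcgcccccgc
Atp5k: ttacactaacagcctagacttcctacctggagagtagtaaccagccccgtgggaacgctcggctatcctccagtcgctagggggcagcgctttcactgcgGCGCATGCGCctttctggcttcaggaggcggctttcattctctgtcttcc
The palindrome begins 162, 42 and 50 bases before the start in these 3 promoters. Of the 4 genes with the palindrome, Cox6a1 had a higher signal in the expansion of all 4 mice, Atp5g2 and Uqcrc1 in mice 1 and 3, and Atp5k in mice 2 and 3.

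The comparison the study was built on, expansion against polyclonal cells of the same mouse, found no subunit gene of any complex past the threshold. Differences are given on the log2(signal + 5) scale, expansion minus polyclonal, and were tested with limma with the mouse as a block and Benjamini-Hochberg adjustment over 22518 probe sets at 0.05. Over all 4 pairs 0 of 76 members passed, every limma adjusted p being 0.9998, where the background was 0% of all tested probe sets. At an unadjusted p under 0.05 limma gave 1 member, Ndufb6, against 3.06% of 10407 tested genes. Over the 3 a4 low pairs 0 members passed in limma, with adjusted p of 0.903 to 1.0 and a background of 0.0533% of probe sets. At an unadjusted p under 0.05 that fit gave 4 members, Ndufb3, Ndufa8, Sdhb and Atp5l, all lower in the expansions, against 5.26% of genes. That number was 11 without mouse 3, 1 without mouse 4 and 1 with quantile normalisation. The shares of all tested genes in those fits are not given here, so these counts are not read as results about the members. For the difference between the subclasses limma called 0 members, with adjusted p of 0.794 to 1.0, a background of 0.0533% of probe sets, and 0 members at an unadjusted p under 0.05 against 6.63% of genes. On simulated data with the spread of these arrays the all-pairs test recovered 5.97% of differences of 1, 70.1% of differences of 2 and 95.5% of differences of 4 log2 units, so differences near 1 were not detectable with these 8 arrays.

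The direction of the difference varied from mouse to mouse. The median difference over the 76 members was 0.18 in mouse 1, -0.31 in mouse 2, 0.70 in mouse 3 and -0.19 in mouse 4, so it was above 0 in mice 1 and 3 and below 0 in mice 2 and 4. Over all tested genes the same medians were 0.08, -0.13, 0.02 and -0.01. In mouse 1, 57 of 76 members were higher in the expansion, against 55.5% of tested genes, and in mouse 3, 60 of 76 against 51.1%. In mouse 2 the number was 24 of 76, against 44.5% of genes, and in mouse 4 it was 29 of 76, against 49.5%. The median over members of the mean difference was 0.15, with 51 members above 0 and 25 below, beside a median of -0.01 over all tested genes. The SD of the 4 mouse medians was 0.46, which is larger than that value. Without mouse 3 the median over members was -0.038. It was 0.053 with the mean over a gene's probe sets, 0.057 with quantile normalisation and 0.058 with sort purity as a covariate. Over the a4 low pairs alone it was 0.18, with 48 members above 0 and 28 below, beside -0.03 over all genes, and -0.25 without mouse 3. With sort purity as a covariate the a4 low median was -0.38, with 23 members above 0. The purity slope of that fit rests on the 3 a4 low pairs, of which only mouse 4 had nearly equal purities (98% and 97%). That value thus leans on mouse 4. The a4 low median was 0.034 with quantile normalisation and 0.044 with the mean over probe sets.

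**Figure D1:**
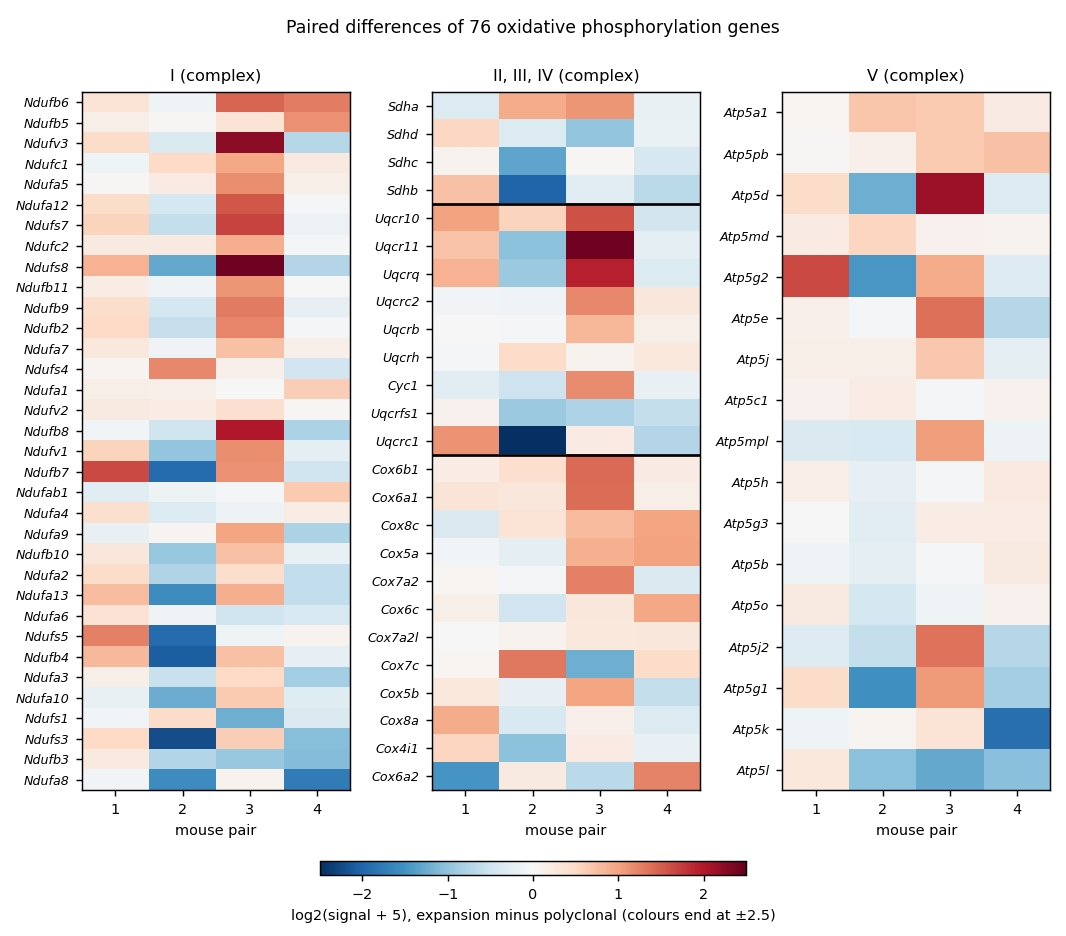
Log2 difference in signal, expansion minus polyclonal, of each of the 76 tested subunit genes (rows, sorted by mean difference within a complex) in each of the 4 mice (columns), red where the expansion was higher. Column 3 is mostly red, with 60 of 76 genes higher, and column 2 mostly blue, with 24 of 76 higher.

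Medians were also taken by complex. Complex I genes had medians of 0.28, -0.43, 0.74 and -0.20 in mice 1 to 4, and complex III genes 0.10, -0.52, 1.19 and -0.22. The medians of complex V genes were 0.13, -0.23, 0.65 and -0.13. Complexes I, III and V thus ran in the same direction as the whole in each mouse. The 12 complex IV genes had medians of 0.09, 0.03, 0.54 and 0.24, above 0 in every mouse, though in mouse 2 only 6 of 12 were higher. Complex IV genes were bright, with a median mean log2 signal of 13.9. All tested genes above 13 on that scale had medians of -0.02, 0.26, 0.23 and 0.13. The 4 complex II genes had medians of 0.30, -0.84, -0.13 and -0.29, and were below 0 in mouse 3, where the other complexes were above. The difference between complexes was not tested, as complex II has 4 genes and all values come from the same 4 mice. The median of the mean difference was 0.15 for complex I, -0.33 for II, 0.23 for III, 0.19 for IV and 0.05 for V. Without mouse 3, the medians of complexes I, III and V were -0.06, -0.13 and -0.04, and that of complex IV was 0.16.

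**Figure D2:**
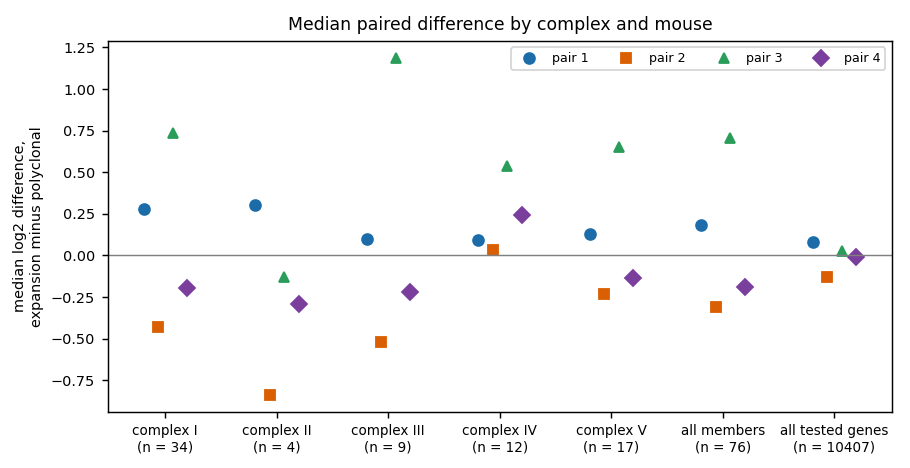
Median log2 difference, expansion minus polyclonal, over the tested genes of each complex, over all 76 members and over all 10407 tested genes, with 1 point per mouse pair. The medians of all tested genes lie between -0.13 and 0.08, while those of complex III run from -0.52 to 1.19.

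Of the 16 possible orders of signs over the 4 mice, 1 was common among the members. Higher in mice 1 and 3 and lower in mice 2 and 4 were 27 of 76 members (35.5%), beside 9.01% of all tested genes. This order was singled out after the values were seen, so its share is given as a description. It held for 15 of 34 complex I genes, 1 of 4 in complex II, 3 of 9 in complex III, 4 of 12 in complex IV and 4 of 17 in complex V. Among the tested core subunits of complex I, which form its catalytic core and are conserved from bacteria, it held for 4 of 6, namely Ndufs3, Ndufs7, Ndufs8 and Ndufv1. It did not hold for Ndufs1, at -0.08, 0.46, -1.22 and -0.36 in mice 1 to 4, or for Ndufv2, higher in all 4. For the other complex I genes it held in 11 of 28 (39.3%). The share also varied with signal. It was 53.8% of 13 members up to a mean log2 signal of 9, 43.8% of 16 members from 9 to 11, 40.9% of 22 members from 11 to 13 and 16.0% of 25 members above 13. For all tested genes in the same ranges the shares were 10.0%, 10.1%, 6.28% and 4.85%. Under alternative scalings the order held for 24 members after quantile normalisation, against 7.70% of genes, and for 20 with each array centred on its median, against 5.89%. With that centring the members' median in mouse 2 became 0.11, as the median of all tested genes there became 0.29, and the members stayed 0.18 log2 units below the genes.

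**Figure D3:**
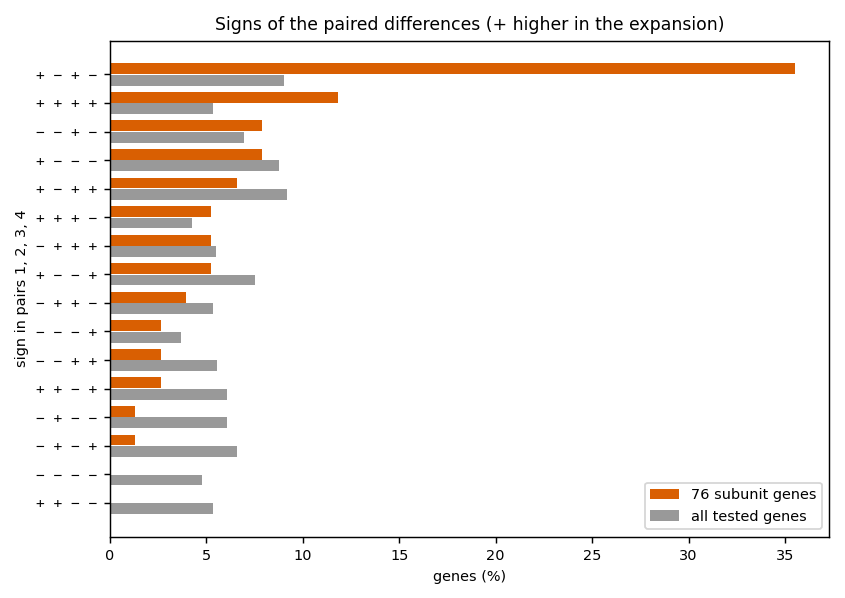
Share of the 76 subunit genes (orange) and of all tested genes (grey), in percent, with each order of signs over mice 1 to 4, where + is higher in the expansion. The longest orange bar is higher in mice 1 and 3 and lower in mice 2 and 4, at 35.5% against 9.01%.

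Some other measures took the same order over the mice. The summed signal of 7 CD8 memory T cell markers, all above background on all 8 arrays, was 38911 in the expansion and 34973 in the polyclonal sample of mouse 1, and 53517 and 42513 in mouse 3. In mouse 2 it was lower in the expansion, at 31750 and 43668, and likewise in mouse 4, at 25645 and 30272. The expansions ranged from 25645 to 53517 and the polyclonal samples from 30272 to 43668. Taken gene by gene, 2 of the 7 markers (28.6%) showed the order, beside 9.01% of all tested genes. The median differences of the 7 were 0.56, -1.02, 0.37 and -0.15 in mice 1 to 4. Cd8a was lower in the expansion of mouse 1, at 16717 and 17529. Genes for mitochondrial ribosomal proteins, 74 tested, had medians of 0.18, -0.39, 0.36 and -0.11, and 18.9% of them showed the order. Cytosolic ribosomal proteins, 44 tested, had 0.05, -0.55, 0.65 and 0.24, and 20.5% of them showed it. The summed signal of 6 B cell markers on the array was 4927 to 38153 in the expansions and 5526 to 18679 in the polyclonal samples. It was highest in the expansion of mouse 2. Gene by gene, however, only 2 of 5 tested B cell markers were higher in that expansion, with a median difference of -0.21. For 7 myeloid markers it was 1483 to 2961 and 805 to 1882. The 4 natural killer cell markers summed to 17551 to 41353 and 19806 to 24692, highest in the expansion of mouse 1. There Eomes gave 21207, Nkg7 14526 and Gzma 5618, while Ncr1 was above background on no array. The 4 CD4 T cell markers summed to 277 to 345 and 181 to 419. The part of these measures in the members' differences was not tested.

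In complex I, Ndufs8, a core subunit that carries iron-sulfur clusters, had the largest spread between mice of the tested genes of the complex. Its signal was 3044 in the expansion and 1659 in the polyclonal sample of mouse 1, 1755 and 4294 in mouse 2, 9568 and 1769 in mouse 3, and 840 and 1395 in mouse 4. The groups overlapped, with the highest and the lowest of all 8 values both in expansions. The differences were 0.87, -1.29, 2.43 and -0.73, a mean of 0.32 (SE 0.53, n = 4 pairs, limma adjusted p = 0.9998). Ndufv1, the core subunit that binds the flavin at which NADH is oxidised, gave 1769 and 1196, 1782 and 3531, 5407 and 2405, and 726 and 863 for expansion and polyclonal sample in mice 1 to 4. Its groups overlapped as well, with the expansion of mouse 3 highest and that of mouse 4 lowest. Ndufs3, another core subunit, differed by 0.50, -2.22, 0.61 and -1.06 in the 4 mice. Ndufs7, the core subunit next to the ubiquinone site, differed by 0.55, -0.60, 1.69 and -0.14.

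Ndufb6, an accessory subunit of the membrane arm, had the largest positive mean difference of the tested complex I genes. Its signal was 5534 and 4338 in expansion and polyclonal cells of mouse 1, 4243 and 4600 in mouse 2, 20689 and 7512 in mouse 3, and 9125 and 3781 in mouse 4. It was higher in the expansion of 3 of 4 mice, and the groups overlapped. The mean difference was 0.74 (SE 0.33, n = 4 pairs), with an unadjusted p of 0.0462 and an adjusted p of 0.9998 in limma. The second tested probe set of the gene had the same signs in all 4 mice and a mean difference of 0.57.

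Ndufa8, an accessory subunit on the side of the intermembrane space, had the largest negative mean of the tested complex I genes. The signal in mice 1 to 4 was 1335, 1394, 2543 and 582 in the expansions and 1405, 4168, 2399 and 1959 in the polyclonal samples. The expansions of mice 2 and 4 were lower than their paired samples, while mice 1 and 3 differed by -0.07 and 0.08. The mean difference was -0.83 (SE 0.39, n = 4 pairs, limma adjusted p = 0.9998), and over the a4 low pairs -1.08 (SE 0.46, n = 3 pairs, limma adjusted p = 0.963).

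Ndufb3 is an accessory subunit of the membrane arm. Signals were 17875, 11437, 6055 and 7310 in the expansions of mice 1 to 4 and 15179, 18885, 11712 and 15401 in the polyclonal samples. The expansion was higher in mouse 1 and lower in all 3 a4 low mice, in which the expansions lay below every polyclonal sample. The a4 low difference was -0.92 (SE 0.33, n = 3 pairs, unadjusted p = 0.0166, limma adjusted p = 0.903), and the difference between the subclasses was -1.15 (SE 0.66, limma adjusted p = 0.906).

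Ndufa1, an accessory subunit of the membrane arm, was the complex I gene with the highest signal. It gave 30087, 27350, 28173 and 31890 in the expansions and 27074, 25155, 27904 and 20893 in the polyclonal samples of mice 1 to 4. It was higher in the expansion of all 4 mice, by 0.01 to 0.61, though the groups overlapped, since the polyclonal sample of mouse 3 exceeded the expansion of mouse 2. The mean difference of 0.22 (SE 0.22, n = 4 pairs, limma adjusted p = 0.9998) was about the size of its error.

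Ndufb7, an accessory subunit facing the intermembrane space, had the lowest adjusted p of the members for the difference between subclasses. Its signal was 7277 and 2307 in mouse 1, 3893 and 14869 in mouse 2, 17256 and 7784 in mouse 3, and 2284 and 3238 in mouse 4, expansion first. The groups overlapped throughout. The difference between the subclasses was -2.08 (SE 1.01, limma adjusted p = 0.794). Without mouse 3, which was higher in the expansion by 1.15, it was -2.87 and passed the threshold, as did probe sets of other genes. That fit compares mouse 1 with mice 2 and 4, so its a4 high side is 1 mouse and the call is not read as a result.

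**Figure D4:**
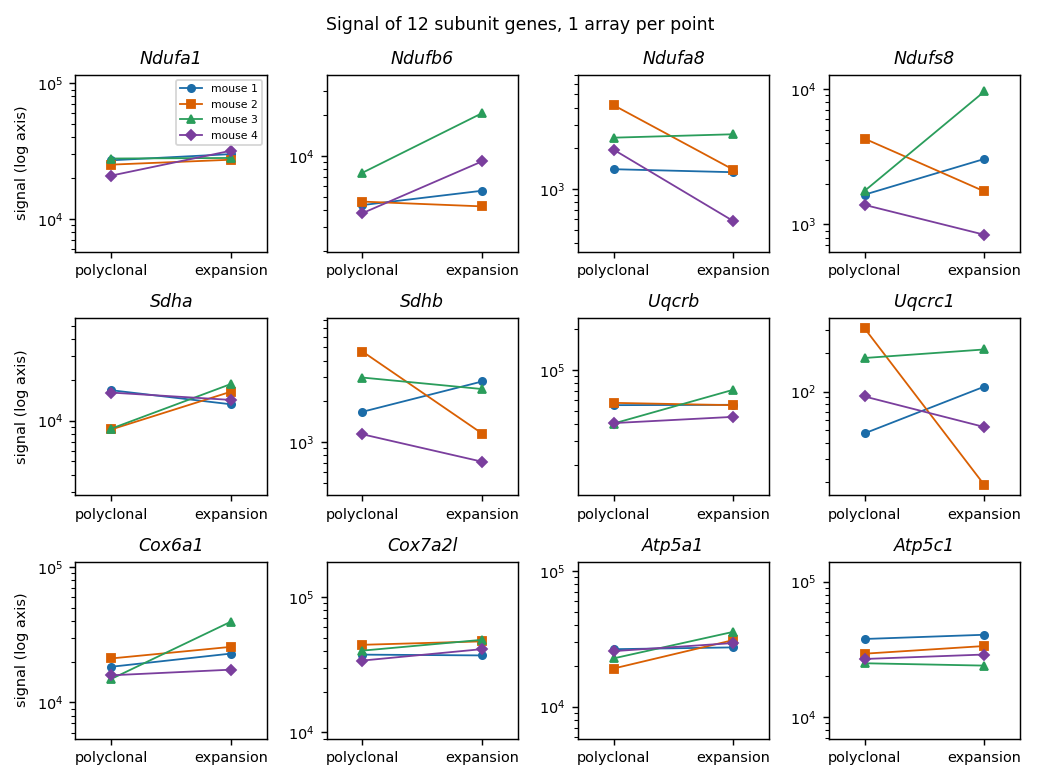
Signal on a log axis of 12 subunit genes in the polyclonal sample (left) and the expansion (right) of each mouse, joined by a line, with 1 array per point. Lines run in both directions for Ndufs8, Sdhb and Uqcrc1, while all 4 slope upward for Atp5a1, Cox6a1 and Ndufa1.

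Complex II also serves the citric acid cycle as succinate dehydrogenase. On the chosen probe sets its mean difference was above 0 for the catalytic flavoprotein and below 0 for the other 3 subunits. Sdha, the flavoprotein, gave 13188, 16364, 18659 and 14206 in the expansions of mice 1 to 4 and 16750, 8616, 8737 and 16098 in the polyclonal samples. It was higher in the expansions of mice 2 and 3, whose polyclonal samples were the lowest of all 8 and the least pure, and lower in mice 1 and 4. The mean difference was 0.37 (SE 0.31, n = 4 pairs, limma adjusted p = 0.9998), and -0.26 over the pairs of mice 1 and 4. Sdhb, the iron-sulfur subunit, gave 2805 and 1675, 1156 and 4659, 2464 and 2996, and 717 and 1143 for expansion and polyclonal cells. Only mouse 1 was higher in the expansion, and the groups overlapped. The mean difference was -0.55 (SE 0.42, n = 4 pairs, limma adjusted p = 0.9998), and 0.036 over the pairs of mice 1 and 4. Of the membrane anchors, Sdhc differed by 0.08, -1.33, 0.02 and -0.41 and Sdhd by 0.52, -0.35, -0.99 and -0.16. The mean differences of both anchors, -0.41 and -0.25, were below 0 like that of Sdhb. The other tested probe sets of the anchors had means above 0, at 0.05 for Sdhc and 0.20 for Sdhd. For Sdha the other tested probe sets gave 0.09, at nearly the same brightness, and 0.08.

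Among complex III genes, Uqcrb, a small subunit near the ubiquinone site, had the highest signal. The expansions of mice 1 to 4 gave 55281, 54921, 71396 and 45062 and the polyclonal samples 54963, 57159, 40221 and 40530. Mouse 3 differed by 0.83 and the other mice by -0.06 to 0.15, and the groups overlapped. Uqcr10, a small accessory subunit, had the largest positive mean, 0.67 (SE 0.46, n = 4 pairs, limma adjusted p = 0.9998), with differences of 1.01, 0.55, 1.58 and -0.45 at signals of 48.7 to 202.5. Uqcrc1, a core protein of the matrix side, had the largest negative mean of the complex. Its signal was 109 and 47.5 in mouse 1, 19.0 and 308 in mouse 2, 211 and 182 in mouse 3, and 53.2 and 91.6 in mouse 4, and it was above background on 6 of 8 arrays. The mean difference of -0.78 (SE 0.68, n = 4 pairs, limma adjusted p = 0.9998) was 0.20 without mouse 2. Cyc1, the cytochrome that hands electrons to cytochrome c, differed by -0.27, -0.52, 1.19 and -0.19, so mouse 3 was again the highest.

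Complex IV has isoforms of several subunits that are known for particular tissues. Cox6a1 and Cox6a2 are the widely expressed and the heart and muscle form of the same subunit. Cox6a1 gave 22953, 25724, 39548 and 17460 in the expansions of mice 1 to 4 and 18342, 21125, 14935 and 15866 in the polyclonal samples. It was higher in the expansion of all 4 mice, by 0.32, 0.28, 1.40 and 0.14, and the groups overlapped because the expansion of mouse 4 lay below the polyclonal samples of mice 1 and 2. The mean difference was 0.54 (SE 0.27, n = 4 pairs, limma adjusted p = 0.9998). A dimmer tested probe set of Cox6a1 was lower in the expansion of mouse 4, by -0.94. Cox6a2 was above background on 5 of 8 arrays, with signals of 11.8 to 154.7. Its differences of -1.48, 0.23, -0.67 and 1.23 had no common sign.

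Cox6b1, the widely expressed form of a subunit on the intermembrane side, had the largest positive mean of the tested complex IV genes. It gave 37047 and 32582, 29252 and 21987, 59935 and 22587, and 29721 and 25815 in mice 1 to 4, expansion first. All 4 expansions were higher than their paired sample, and 1 polyclonal value, that of mouse 1, lay within the range of the expansions. The mean difference was 0.55 (SE 0.26, n = 4 pairs, limma adjusted p = 0.9998), and 0.19 over the pairs of mice 1 and 4. A dimmer tested probe set of the gene gave 0.15, -0.79, 0.21 and -0.41.

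Cox4i1, the widely expressed form of the largest nuclear-encoded subunit, gave 10864, 5707, 10359 and 4606 in the expansions and 7497, 11689, 8944 and 5256 in the polyclonal samples. It followed the common order, with differences of 0.53, -1.03, 0.21 and -0.19, a mean of -0.12 (SE 0.31, n = 4 pairs, limma adjusted p = 0.9998). Cox7a2, the widely expressed form of its subunit, differed by 0.04, -0.02, 1.26 and -0.36, and Cox8a, also widely expressed, by 0.92, -0.38, 0.13 and -0.34. Cox7a2l, a relative of Cox7a2 known for joining complexes III and IV, was the complex IV gene with the highest signal. Its signal lay between 33886 and 48204 on all 8 arrays, with differences of -0.02 to 0.28 and overlapping groups. Cox8c, known as a testis form, gave 58.6 and 77.2, 80.4 and 62.0, 153 and 86.1, and 171 and 84.1 in mice 1 to 4, with a mean difference of 0.44 (SE 0.43, n = 4 pairs, limma adjusted p = 0.9998). The forms Cox4i2, Cox6b2, Cox7a1, Cox7b2 and Cox8b did not pass the filter, nor did Ndufa4l2 and Ndufb1, counted under complex I by symbol. Cox7a1, a heart and muscle form, was above background on no array, and the signals of these 7 genes ranged from 1.53 to 98.4.

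In complex V, Atp5a1, the alpha subunit of the catalytic head, had the largest positive mean. It gave 27289, 30895, 35539 and 29383 in the expansions of mice 1 to 4 and 26462, 19059, 22640 and 25601 in the polyclonal samples. Every expansion lay above every polyclonal sample. Such groups without overlap were found for 2 of 76 members, Atp5a1 and Atp5md, and for 1.58% of all tested genes. The mean difference of Atp5a1 was 0.40 (SE 0.23, n = 4 pairs, limma adjusted p = 0.9998), and a dimmer probe set of the gene was lower in mouse 4, by -0.65. Atp5md, a small membrane subunit known from dimers of the enzyme, gave 2348, 2735, 2077 and 2185 in the expansions and 2023, 1874, 1923 and 2050 in the polyclonal samples. Its lowest expansion and highest polyclonal value were close, and the mean difference was 0.24 (SE 0.30, n = 4 pairs, limma adjusted p = 0.9998).

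Atp5b, the catalytic beta subunit, differed by -0.11, -0.23, -0.03 and 0.22, and Atp5c1, the central stalk subunit and the complex V gene with the highest signal, by 0.10, 0.19, -0.06 and 0.11. Both stayed within 0.23 log2 units in all 4 mice. The 3 genes of the membrane ring subunit c, whose mature proteins are known to be the same, are given side by side. Atp5g1 gave 253 and 182, 82.7 and 250.1, 341 and 160.0, and 52.7 and 98.8 in mice 1 to 4, expansion first. Atp5g2 gave 449 and 139, 158 and 442, 326 and 168, and 139 and 175. Both followed the common order, with differences from -1.54 to 1.66, whereas Atp5g3, at signals of 20862 to 31966, stayed between -0.28 and 0.19.

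Atp5l, a membrane subunit, had the largest negative mean of complex V. Its signal was 110 and 90.2, 68.8 and 145, 41.8 and 108, and 53.5 and 115 in mice 1 to 4, and it was above background on 7 of 8 arrays. The expansion was higher in mouse 1 and lower in all 3 a4 low mice. The mean difference over the a4 low pairs was -1.11 (SE 0.50, n = 3 pairs, limma adjusted p = 0.966), and over all pairs -0.76 (SE 0.44, n = 4 pairs, limma adjusted p = 0.9998). Atp5k, another membrane subunit, was lower in the expansion of mouse 4 by -1.88 and differed by -0.11 to 0.33 in the other mice.

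Members with the same sign in all 4 mice were all on the higher side. These were 9 genes, 11.8% of the 76: Ndufa1, Ndufa5, Ndufb5 and Ndufv2 of complex I, Cox6a1 and Cox6b1 of complex IV, and Atp5a1, Atp5pb and Atp5md of complex V. Among all tested genes 5.34% were higher in all 4 mice. No member was lower in all 4, beside 4.78% of tested genes. These signs are those of the chosen probe sets. Only Ndufa1 and Atp5md of the 9 had no second probe set. Each of the others had a further tested probe set with mixed signs. That probe set was lower in the expansion of mouse 4 for Ndufa5 (-0.52) and Cox6a1 (-0.94). In mouse 3 it was lower for Ndufb5 (-0.04), Ndufv2 (-0.81) and Atp5pb (-0.69). Over the 3 a4 low mice alone 13 members were higher in every expansion, against 10.8% of genes, and 6 were lower in every expansion, against 13.6%. Ndufa5, an accessory subunit of the matrix arm, gave 17334, 15957, 27162 and 18697 in the expansions and 16941, 13852, 12132 and 16969 in the polyclonal samples. The groups overlapped, and the difference was large only in mouse 3. Atp5pb, a subunit of the peripheral stalk, gave 22304, 18285, 31100 and 28852 against 21940, 16800, 19834 and 17414, with larger differences in mice 3 and 4 than in mice 1 and 2.

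The spread between mice set how far a mean could be read. The SD of the 4 paired differences had a median of 0.68 over the members, beside 0.73 over all tested genes, and the SE of the mean difference ran from 0.20 to 0.68. The SD was 0.10 for Atp5c1 and 2.10 for Uqcrc1. By signal, the median SD of the members was 1.16 up to a mean log2 signal of 9, 0.74 from 9 to 11, 0.76 from 11 to 13 and 0.52 above 13. For 45 members more than 1 probe set was tested, and in 22 of them all probe sets had the same sign of mean difference.

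**Figure D5:**
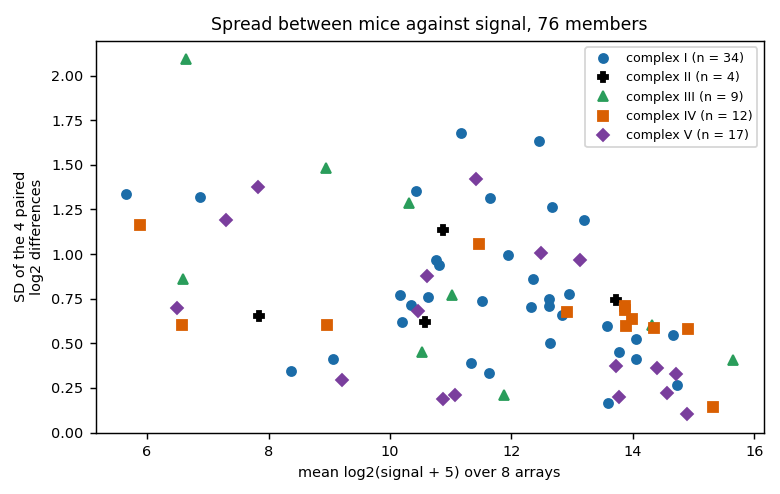
SD of the 4 paired log2 differences of each of the 76 members against its mean log2(signal + 5) over 8 arrays, marked by complex. The SD runs from 0.10 for Atp5c1 to 2.10 for Uqcrc1, and its median falls from 1.16 in the dimmest to 0.52 in the brightest members.

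Genes around the complexes were read from lists chosen by function, and 0 of their members passed limma's adjusted threshold in the 3 comparisons. Assembly factors of the complexes, 45 of 50 tested, had a median mean difference of 0.09, with medians by mouse of 0.00, -0.18, 0.36 and -0.06. The largest among them were Cox15, which makes the haem of complex IV, at 0.72, Lrpprc, which stabilises mitochondrial messenger RNA, at -0.56 and Uqcc3, an assembly factor of complex III, at -0.50, of which mouse 2 gave -2.22 and the other mice 0.51, -0.17 and -0.14. Citric acid cycle genes, 17 of 19 tested, had a median of -0.05, with medians by mouse of 0.01, -0.01, 0.03 and -0.26. Pdhx, a structural part of the pyruvate dehydrogenase complex, was lower in the expansion of all 4 mice, by -1.04, -0.95, -1.85 and -1.65 at a mean signal of 84.2 (mean -1.37, SD 0.45, limma adjusted p = 0.9998). Its signals in the expansions of mice 3 and 4, 27.3 and 27.4, were below the background of those arrays. Ogdh and Dlst, both of the oxoglutarate dehydrogenase complex, had means of -1.11 and -0.69 with 1 mouse each in the opposite direction.

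Electron carriers and other entry points to ubiquinone, 16 of 19 tested, had a median mean difference of 0.05. The largest were Sqor, which oxidises sulfide, at 1.06, Coq3 of ubiquinone synthesis at -0.60, lower in all 4 mice, and Gpd2 of the glycerol phosphate shuttle at 0.54. Sqor differed by 0.12, 3.13, 0.16 and 0.83, and its signal in the polyclonal sample of mouse 2 was below that array's background. For ADP/ATP exchange and uncoupling 7 of 11 genes were tested, with a median of 0.10. Slc25a4, an ADP/ATP carrier, had a mean of 0.43, and the outer membrane channels Vdac1 and Vdac2 had 0.33 and -0.21.

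All 20 regulators of mitochondrial biogenesis on the list were tested, and their median mean difference was -0.14, with 13 below 0 and 7 above. Ppargc1a, the coactivator of the respiratory gene programme, differed by 1.33, -1.65, -3.37 and 1.17 at a mean signal of 105. Its signal was below background in the expansion of mouse 3 (9.70) and in the polyclonal sample of mouse 1 (25.6). Esrra, the receptor that Ppargc1a acts with, differed by 0.07, -1.55, -0.42 and -0.24. Twnk, the mitochondrial DNA helicase, differed by -0.35, -1.52, 0.04 and -0.31, so mouse 2 was the lowest for both Esrra and Twnk. Nrf1, whose motif is shown above, differed by -0.03, -0.42, 0.60 and -0.66, and Gabpa by -0.24, 0.82, -0.14 and 0.79. Yy1 had a mean difference of -0.09. None of the 20 regulators showed the order that was common among the subunits, beside 9.01% of all tested genes. A list of 20 genes is too short to be set apart from that share.

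Over the 8 arrays, the tested genes outside the list whose log2 signal was most like the median of the members were Psmb3, Mknk2, 1110032A03Rik, Psmd8 and Iqgap1, each with a Pearson correlation of 0.97. The points are 8 arrays from 4 mice and share each array's overall scale, so this is a description. The members themselves had a median correlation of 0.54 with their own median, and other tested genes 0.13.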

How the data were processed

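RNA of sorted cells was amplified in a double round, labelled and hybridised to 1 array per sample. The deposited intensity values were made by the authors with MAS5, per the submitters' processing notes, on a linear scale; the trimmed mean of each array was 500.0, computed here. No version or other step is given in the sources used here. The number of arrays limits the precision, and p-values rest on 4 mice.

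Values were taken as log2(intensity + 5). The 64 control probe sets and those with a mean at or below the median were left out, leaving 22518. Background was the 95th percentile of 27 unspiked control probe sets on each array. Genes came from the platform annotation: 34958 probe sets name 1 gene, 932 several and 9211 none, and 34754 were matched to RefSeq. A further 10 shared probe sets that name a member and another gene were not used, and of the chosen probe sets 23 of 76 have a suffix (_s_at or _x_at) for probes that can bind related transcripts. limma 3.58.1 in R 4.3.3 (lmFit, eBayes with trend) was used with mouse as a block, tested on simulated data. Expansion and polyclonal samples are paired because they come from the same mouse, per the labels' design text; deviations of paired arrays from their group means correlated at 0.374, 0.0771, 0.214 and 0.338. Arrays of different mice correlated at -0.347 to 0.301, and for 2 of the expansions an array of another mouse correlated higher than its own. The descriptions of the expansions titled 3 and 4 number them 4 and 5; pairs follow the titles, with matching strain, age and Vb segment. A separate coefficient was fitted for the a4 low expansions; with 1 a4 high pair, its spread is assumed to be that of the others. Alternatives changed the pseudocount, filter, scaling, probe set choice, trend, block, purity and replicates. The members, the gene lists and the motifs were chosen with earlier results of these data known. All members could be named; full values are given for the brightest member and the largest positive and negative mean difference in each complex, the isoforms of complex IV, and members singled out after their values were seen (Ndufs8, Ndufs3, Ndufs7, Ndufv1, Ndufb3, Ndufb7, Ndufa5, Atp5g1, Atp5g2, Atp5g3, Atp5k, Atp5b, Atp5md, Atp5pb, Cyc1, Sdhc and Sdhd). In each other list up to 3 genes with the largest absolute mean difference are named; Nrf1, Gabpa and Yy1 were added for their motifs. Likeness over the 4 paired differences was not computed for the text, as 4 points are too few.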

Additional observations from a re-analysis of the deposited data

Results flagged for a closer look

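In 10 of 76 members the a4 high pair of mouse 1 and all 3 a4 low pairs had opposite signs, 6 of them higher in mouse 1 (7.89%, against 8.78% of tested genes) and 4 lower in mouse 1 (5.26%, against 5.50%). For Sdhb the a4 low minus a4 high difference was -1.73, with 0.74 in mouse 1 and -2.01 to -0.28 in the others (limma adjusted p = 0.845). For Atp5l it was -1.38, with 0.27 in mouse 1 and -1.27 to -1.02 in the others (limma adjusted p = 0.986), and for Ndufb3 -1.15 (limma adjusted p = 0.906). Sdhd had a difference of -1.02, Uqcrfs1, the iron-sulfur protein of complex III, -0.86 and Ndufa6 -0.69. Above 0 were Cox8c at 1.08, Ndufc1 at 0.67, Uqcrh at 0.29 and Cox7a2l at 0.23. The limma adjusted p of these last 7 was 0.9997 each. None of the 10 passed the threshold, and the a4 high side is 1 mouse.

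In 2 of 164 groups of 4 values 1 sample stood far from the other 3, where chance gives about 1 in 20. Uqcrc2, a core protein of complex III, had a signal of 36816 in the expansion of mouse 3 and 19517 to 19786 in the other expansions, a gap of 0.978 of the range. Ndufa2 had 10252 in the polyclonal sample of mouse 2 and 6815 to 6958 in the other polyclonal samples, a gap of 0.949 of the range.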

How the results depend on the processing

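No member passed the adjusted threshold over all pairs or over the a4 low pairs under any of the alternatives run, including the fit with no replicate block, which left 0 members called in each comparison and the all-pairs median at 0.15. Between the subclasses no member passed under the alternatives run, except Ndufb7 without mouse 3. That fit also called probe sets of other genes and had 1 a4 high mouse, so the call is not read as a result. Without the trend in eBayes, 0, 1 and 0 members had an unadjusted p under 0.05 in the 3 comparisons. The share of all tested genes in that fit is not given here. Leaving out 1 mouse moved the members' median from -0.038 to 0.24 over all pairs and from -0.25 to 0.29 over the a4 low pairs. With sort purity as a covariate the a4 low median was -0.38, a value that leans on mouse 4, and the all-pairs median was 0.058. The order higher in mice 1 and 3 and lower in 2 and 4 held for 16 of 53 members on probe sets ending in _at or _a_at, where fewer members are counted. Signs of mean differences that were not past the threshold turned as follows. With purity as a covariate Sdha was -0.12, Cox4i1 0.048 and Cox7a2 -0.13. Without the pairs of low purity (chosen after seeing the data) Sdha was -0.26, Sdhb 0.036, Uqcrc1 0.19, Cox4i1 0.17 and Cox7a2 -0.16. With quantile normalisation Uqcrb was -0.0075, Cox7a2l -0.059 and Atp5c1 -0.11, and with the mean over probe sets Atp5c1 was -0.0074. Leaving out 1 mouse gave ranges of -0.64 to 0.26 for Cox6a2 and -0.19 to 0.24 for Cox8a, which turned without mouse 1, of -1.41 to 0.20 for Uqcrc1 and -0.34 to 0.19 for Cox4i1, which turned without mouse 2, and of -0.11 to 0.43 for Cox7a2, which turned without mouse 3. The cause of these turns was not tested. For dim members, signal near background limits what can be read.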
